A study of Mus musculus with 24 samples.

Results

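The RNA of 3 tissue inhibitors of metalloproteinases (Timp1, Timp2 and Timp3) and 3 matrix-cutting proteases of the ADAMTS family (Adamts1, Adamts4 and Adamts5) was followed in sorted mouse colon fibroblasts. These 6 genes were picked by symbol out of the 30827 genes with a single-gene probe set on the array, and each had 1 probe set. RNA levels were read on 24 Affymetrix MTA 1.0 arrays, 1 per sample, from cells sorted as negative for Epcam, CD45 and CD31 and positive for gp38, which is podoplanin. The IhhKO_ApcKO group (genotype Villincre-ERT2-ZsGreen-IhhKO-ApcKO) had 9 arrays, the ApcKO group (Villincre-ERT2-ZsGreen-IhhWT-ApcKO) had 8, and the WT group (Villincre-ERT2-ZsGreen-IhhWT-ApcWT) had 7. All mice therefore carried the inducible Villin-Cre and the ZsGreen allele, WT mice included. Villin drives Cre in the intestinal epithelium, so the fibroblasts themselves keep Ihh and Apc, and their own levels of both genes do not check the deletion. The labels give no age, sex or induction schedule. Nor do they say whether arrays stand for separate mice, so p-values here measure the spread between these samples, which may be partly technical.

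TIMPs are secreted proteins that block metalloproteinases by occupying the zinc of the active site. Timp1 and Timp2 act mainly on matrix metalloproteinases, Timp2 also helps the membrane protease Mmp14 to activate pro-Mmp2, and Timp3 stays bound to the matrix and is the main inhibitor of Adamts4 and Adamts5. Adamts1, Adamts4 and Adamts5 are secreted zinc proteases that cut large proteoglycans such as versican and aggrecan. In the gut, fibroblasts beneath the epithelium make and turn over much of this matrix, and they receive the Hedgehog ligand Ihh from the epithelium. The deletion of Ihh beside Apc was thus set against Apc deletion alone and against WT.

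Promoter windows from RefSeq, build GRCm38.p6, are shown for Timp1 and Adamts1, which varied together with Adamts4 below, and for Timp3, which had the lowest p-value of the 6 between genotypes. Each runs 5′ to 3′ on the strand of its gene, from 250 bases before the annotated start to 50 after it. The windows are chrX:20869916-20870215 on the plus strand for Timp1, chr10:86300162-86300461 on the plus strand for Timp3, and chr16:85803064-85803363 on the minus strand for Adamts1. Capitals mark matches, on either strand, to 4 short motifs: the AP-1 consensus TGANTCA, an AP-1 variant TGAGTAA, the core of the GLI motif TGGGTGG and the TATA box TATAAA.
Timp1: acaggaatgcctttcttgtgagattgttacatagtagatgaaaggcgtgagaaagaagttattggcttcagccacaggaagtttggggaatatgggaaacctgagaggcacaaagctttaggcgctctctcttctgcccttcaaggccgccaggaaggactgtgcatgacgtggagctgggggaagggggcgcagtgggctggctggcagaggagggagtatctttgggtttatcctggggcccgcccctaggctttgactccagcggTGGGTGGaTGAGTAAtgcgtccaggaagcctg
Timp3: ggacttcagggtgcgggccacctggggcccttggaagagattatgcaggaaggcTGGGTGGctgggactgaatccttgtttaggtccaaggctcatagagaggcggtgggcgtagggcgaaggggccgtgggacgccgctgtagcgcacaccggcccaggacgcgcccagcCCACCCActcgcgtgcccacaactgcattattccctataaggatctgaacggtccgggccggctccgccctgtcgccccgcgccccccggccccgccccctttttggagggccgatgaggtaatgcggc
Adamts1: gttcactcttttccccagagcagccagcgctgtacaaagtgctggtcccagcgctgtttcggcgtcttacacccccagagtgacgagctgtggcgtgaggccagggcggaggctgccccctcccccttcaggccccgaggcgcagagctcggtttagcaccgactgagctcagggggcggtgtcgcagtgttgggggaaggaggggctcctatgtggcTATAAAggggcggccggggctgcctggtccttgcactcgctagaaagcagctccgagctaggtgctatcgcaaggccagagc

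In the Timp1 window a GLI core began 18 bases after the start and the AP-1 variant 26 bases after it, with no overlap. The Timp3 window held a GLI core on each strand, and the Adamts1 window held a TATA box at position -32 from the start. In the Timp2 window, not printed here, a GLI core lay on the opposite strand. No window was available for Adamts4 or Adamts5, so their promoters were not searched. Of all 32851 promoter windows of this length, 7.81% held the AP-1 consensus, 2.68% the variant, 9.3% the GLI core and 13.6% the TATA box. These matches describe letters and are not shown to be bound.

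The deposited values are log2 values from RMA, so a difference of 1 is a doubling, and array medians lay between 4.96 and 5.14. Over all arrays Timp1 averaged 8.22 and Adamts5 8.37, close to the 95th percentile of the negative control probe sets, 8.21. Fibroblast genes were high on every array, with a mean over 8 markers (Col1a1, Col1a2, Col3a1, Dcn, Lum, Pdpn, Thy1 and Vim) of 10.62 in IhhKO_ApcKO, 10.69 in ApcKO and 10.74 in WT. Epithelial markers varied between arrays: the mean of 16 of them spanned 5.38 to 8.11 in IhhKO_ApcKO, 6.11 to 8.05 in ApcKO and 5.67 to 7.89 in WT. These means lay above the median of the negative control probe sets, 4.65, and below their 95th percentile, 8.21. Gli1, a transcription factor induced by Hedgehog signalling, lay between 6.64 and 7.05 on the IhhKO_ApcKO arrays other than B9, between 8.03 and 8.47 in ApcKO and between 7.98 and 8.20 in WT. On IhhKO_ApcKO array B9, Gli1 was at 7.99, and Ptch1 and Hhip also lay within the range of the other genotypes there. Without B9, IhhKO_ApcKO minus ApcKO was 0.15 for Timp1, 0.021 for Timp2, 0.25 for Timp3, 0.053 for Adamts1, 0.17 for Adamts4 and 0.057 for Adamts5. IhhKO_ApcKO minus WT was then 0.20, -0.038, 0.16, 0.11, 0.23 and -0.015 in the same order of genes, and none of these passed. The letter that opens each array's code nearly follows genotype, being C in IhhKO_ApcKO (only B9 deviates), B in ApcKO (only A9 deviates) and A throughout WT. What it stands for is not given, and apart from those 2 arrays letter and genotype cannot be told apart.

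None of the 6 genes passed the test in any of the 3 comparisons. The share of all genes that passed was 0% for ApcKO minus WT, 0.0454% (14 genes) for IhhKO_ApcKO minus ApcKO and 0.0811% (25 genes) for IhhKO_ApcKO minus WT, so a count of 0 in 6 does not set these genes apart from the others. The 95% intervals gave bounds on the differences that hold for this fit only, which had no term for the code letter. The farthest bound belonged to Adamts4 in every comparison, and was 1.3-fold for ApcKO over WT, 1.41-fold for IhhKO_ApcKO over ApcKO and 1.48-fold for IhhKO_ApcKO over WT. For all 6 genes the 2 groups' values overlapped in every comparison. Among all genes, 0.00649%, 0.0227% and 0.0714% did not overlap in the same order of comparisons. In these bulk samples, fewer cells of a type and less RNA per cell cannot be told apart.

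**Figure D1:**
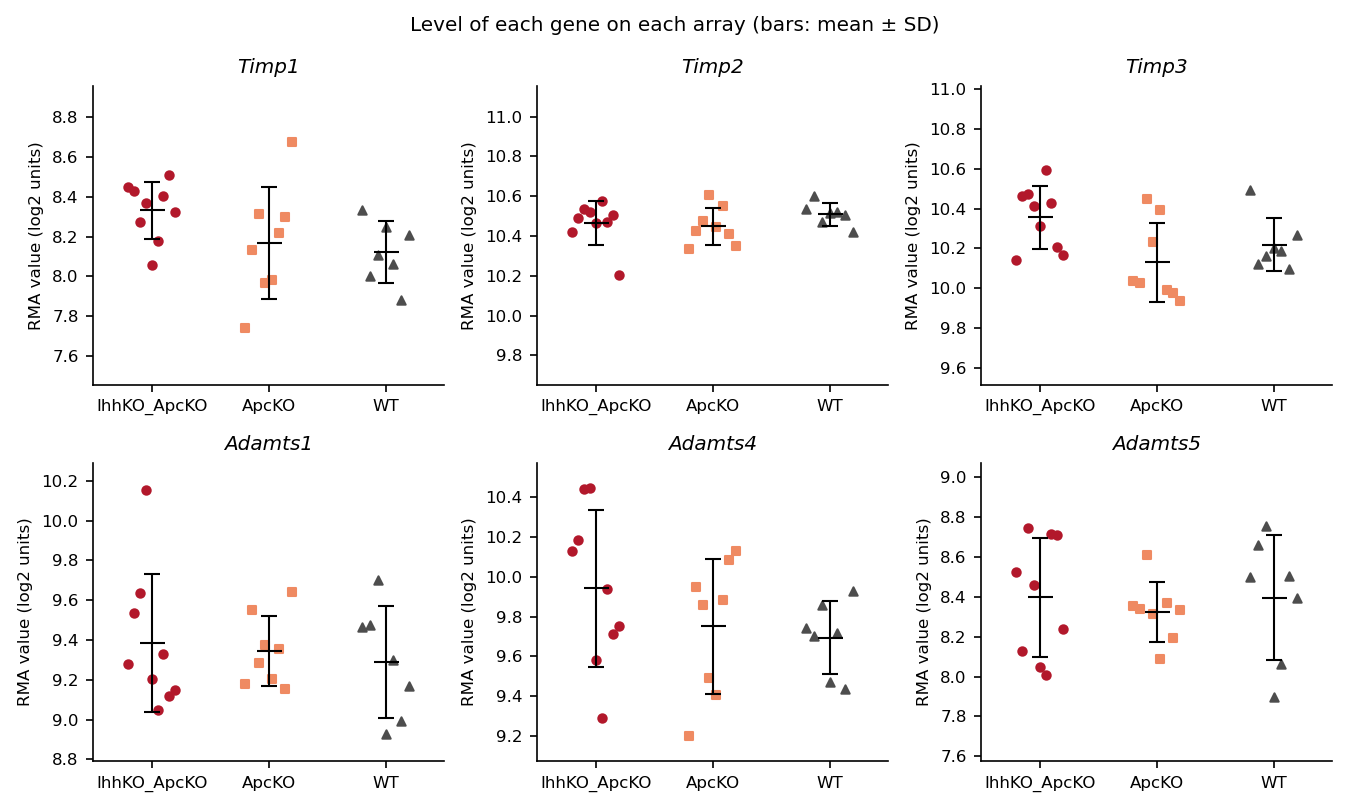
RMA log2 level of each gene on each array, with IhhKO_ApcKO at the left, ApcKO in the middle and WT at the right. Each point is 1 array and the bars are the group mean ± SD. The vertical span is the same in all panels, and the 3 groups overlap in each. Timp2 has the narrowest spread, and 1 IhhKO_ApcKO array stands high for Adamts1.

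Timp1 is a soluble, inducible inhibitor. Its lowest, median and highest log2 values were 8.06, 8.37 and 8.51 in IhhKO_ApcKO, 7.74, 8.18 and 8.67 in ApcKO, and 7.88, 8.11 and 8.33 in WT. The IhhKO_ApcKO values were close together at the upper end, while ApcKO held both the lowest array (A9) and the highest (B8), so that the ApcKO range enclosed both others. Timp1 averaged 8.33 ± 0.14 in IhhKO_ApcKO, 8.17 ± 0.28 in ApcKO and 8.12 ± 0.16 in WT (SD, n = 9, 8 and 7). The difference of IhhKO_ApcKO minus WT was 0.21 (SE 0.10, 95% interval 0.011 to 0.41), with 8 of 9 IhhKO_ApcKO arrays above the WT mean and 5 above every WT array. Its unadjusted limma p was 0.0393 and its Benjamini-Hochberg adjusted p over all genes 0.629. IhhKO_ApcKO minus ApcKO was 0.17 (interval -0.027 to 0.36, adjusted p = 1), and ApcKO minus WT was 0.046 (interval -0.16 to 0.25, adjusted p = 0.986). The size of the IhhKO_ApcKO minus ApcKO value shifted with single ApcKO arrays, being 0.11 without A9 and 0.24 without B8. Without B9, IhhKO_ApcKO minus WT was 0.20, with an adjusted p of 0.688. Timp1 lies on the X chromosome, and the level of Xist, the RNA of the inactive X, varied widely within each genotype. It ran from 4.37 to 11.21 in IhhKO_ApcKO, 4.36 to 11.44 in ApcKO and 4.38 to 11.22 in WT. The Xist medians were unequal, at 10.95, 4.57 and 7.15 in the same order. With Xist as a covariate, a setting added after the data were seen, the difference was again 0.20.

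Timp2, which is made constitutively in many tissues, was the steadiest of the 6. Its lowest, median and highest values were 10.20, 10.49 and 10.58 in IhhKO_ApcKO, 10.34, 10.44 and 10.61 in ApcKO, and 10.42, 10.52 and 10.60 in WT. Apart from IhhKO_ApcKO array C9, which was low, the arrays of all genotypes shared a narrow band. Timp2 averaged 10.47 ± 0.11 in IhhKO_ApcKO, 10.45 ± 0.09 in ApcKO and 10.51 ± 0.06 in WT. The 3 differences were 0.016 for IhhKO_ApcKO minus ApcKO (interval -0.086 to 0.12), -0.044 for IhhKO_ApcKO minus WT (-0.15 to 0.061) and -0.060 for ApcKO minus WT (-0.17 to 0.048). These are the tightest intervals of the 6 genes, and all 3 include 0.

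Timp3, the matrix-bound inhibitor of the aggrecan-cutting proteases, had the smallest p of the 6 genes. Its lowest, median and highest values were 10.14, 10.41 and 10.59 in IhhKO_ApcKO, 9.94, 10.03 and 10.45 in ApcKO, and 10.09, 10.19 and 10.49 in WT. Most ApcKO arrays were low, with B2 and B4 standing above the rest of their group, and the WT median fell between those of the other groups, although WT array A1 (10.49) lay above every ApcKO array. Timp3 averaged 10.36 ± 0.16 in IhhKO_ApcKO, 10.13 ± 0.20 in ApcKO and 10.22 ± 0.13 in WT. IhhKO_ApcKO minus ApcKO was 0.23 (SE 0.079, interval 0.064 to 0.39), with 9 of 9 IhhKO_ApcKO arrays above the ApcKO mean and 3 above every ApcKO array. The unadjusted limma p was 0.00825, rank 383 among all genes, and the adjusted p was 0.664. IhhKO_ApcKO minus WT was 0.14 (interval -0.032 to 0.30) and ApcKO minus WT was -0.089 (interval -0.26 to 0.083). The last was -0.044 without A1 and -0.13 without B2.

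Leaving out B9, the IhhKO_ApcKO array lowest in Timp3, gave 0.25 for IhhKO_ApcKO minus ApcKO, with an adjusted p of 0.424. A block for the code letter gave -0.0019, which is B9 alone minus the mean of the ApcKO arrays coded B. Markers of other cells were also compared between these groups. All 8 smooth muscle markers had a negative difference and 7 were below an unadjusted limma p of 0.05, although 0 passed. Of all genes, 56.6% had a positive difference and 4.94% an unadjusted p under 0.05 in either direction. The median over arrays of the smooth muscle mean was 7.74 in IhhKO_ApcKO and 8.07 in ApcKO. The mean of the epithelial markers was 6.89 ± 0.878 in IhhKO_ApcKO and 7.22 ± 0.765 in ApcKO (SD over arrays). Of these 16 markers, 0 had an unadjusted limma p under 0.05. The part of the smooth muscle markers in the Timp3 difference was not tested. With the epithelial or the immediate early mean as a covariate the Timp3 difference was 0.19, and with the leukocyte mean it was 0.27.

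Adamts1, a protease of versican and aggrecan that is induced by hormones and inflammation, had one array far above the rest. Its lowest, median and highest values were 9.05, 9.28 and 10.15 in IhhKO_ApcKO, 9.16, 9.32 and 9.64 in ApcKO, and 8.93, 9.30 and 9.70 in WT. The medians were nearly equal, and the IhhKO_ApcKO maximum came from C3, which also had the lowest fibroblast and epithelial marker means of its group, 10.33 and 5.38. Adamts1 averaged 9.38 ± 0.35 in IhhKO_ApcKO, 9.34 ± 0.18 in ApcKO and 9.29 ± 0.28 in WT. IhhKO_ApcKO minus ApcKO was 0.040 (interval -0.22 to 0.30), IhhKO_ApcKO minus WT 0.094 (-0.18 to 0.37) and ApcKO minus WT 0.054 (-0.22 to 0.33). Without C3 the first of these was -0.056 and the second -0.0022.

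Adamts4, named aggrecanase-1 for its action on cartilage proteoglycan, varied most. Its lowest, median and highest values were 9.29, 9.94 and 10.45 in IhhKO_ApcKO, 9.20, 9.87 and 10.13 in ApcKO, and 9.44, 9.72 and 9.93 in WT. The WT arrays sat in the middle of the range, and both other genotypes extended above and below them. Adamts4 averaged 9.94 ± 0.39 in IhhKO_ApcKO, 9.75 ± 0.34 in ApcKO and 9.69 ± 0.18 in WT. IhhKO_ApcKO minus WT was 0.25 (SE 0.15, interval -0.065 to 0.56, adjusted p = 0.755), with 7 of 9 IhhKO_ApcKO arrays above the WT mean. IhhKO_ApcKO minus ApcKO was 0.19 (interval -0.11 to 0.50) and 0.11 without A9. ApcKO minus WT was 0.057 (interval -0.27 to 0.38), 0.0033 without B8 and 0.14 without A9. None of the 3 intervals left out 0.

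Adamts5, or aggrecanase-2, lies beside Adamts1 on chromosome 16. Its lowest, median and highest values were 8.01, 8.46 and 8.75 in IhhKO_ApcKO, 8.09, 8.34 and 8.61 in ApcKO, and 7.90, 8.50 and 8.76 in WT. The IhhKO_ApcKO and WT arrays spread over nearly the same range, and ApcKO lay inside it. Adamts5 averaged 8.40 ± 0.30 in IhhKO_ApcKO, 8.33 ± 0.15 in ApcKO and 8.40 ± 0.31 in WT. IhhKO_ApcKO minus ApcKO was 0.073 (interval -0.17 to 0.32), IhhKO_ApcKO minus WT 0.00093 (-0.25 to 0.26) and ApcKO minus WT -0.072 (-0.33 to 0.19). In the RefSeq annotation Timp1 lies within Syn1 and Timp3 within Syn3. Those 2 host genes stayed between 5.23 and 5.72 and between 4.32 and 4.78 over all arrays.

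**Figure D2:**
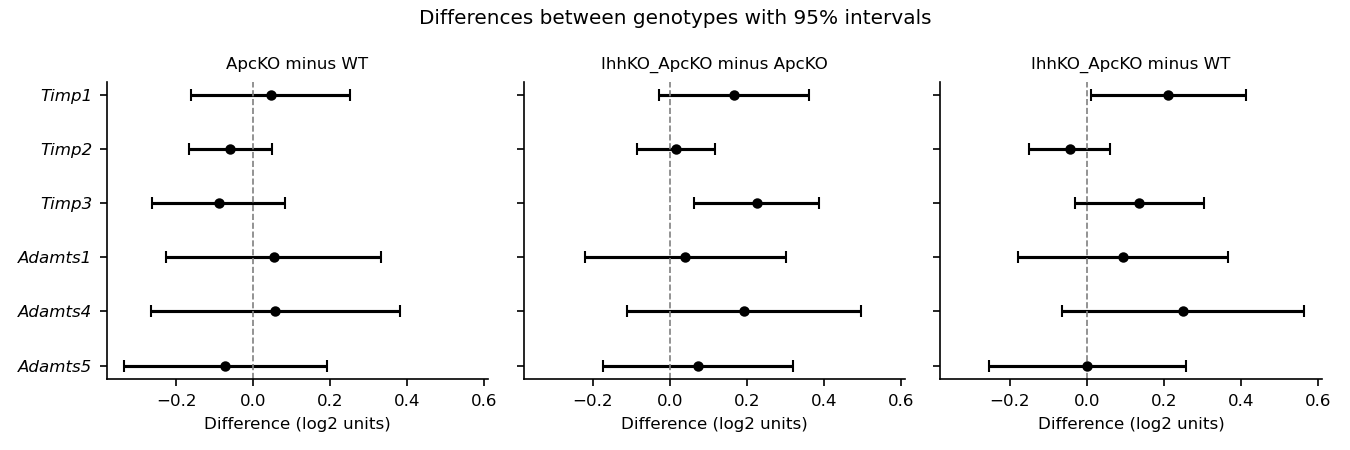
Difference in log2 level for each gene in the 3 comparisons (points) with 95% intervals of the limma fit (bars). The dashed line marks 0. The interval of Timp3 lies above 0 in IhhKO_ApcKO minus ApcKO and that of Timp1 lies above 0 in IhhKO_ApcKO minus WT, and neither passed after adjustment over all genes.

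Counted by direction, 3 of 6 genes had a positive difference in ApcKO minus WT, 6 of 6 in IhhKO_ApcKO minus ApcKO and 5 of 6 in IhhKO_ApcKO minus WT, beside 39.4%, 56.6% and 44.9% of all genes. The median difference of the 6 was -0.0069, 0.12 and 0.12 in the same order, beside -0.021, 0.011 and -0.011 over all genes. At an unadjusted p under 0.05 the counts were 0, 1 (Timp3) and 1 (Timp1) of 6, and the shares of all genes 4.41%, 4.94% and 7.62%. The comparisons share arrays in pairs, so their counts do not add up as separate evidence.

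Other TIMP and ADAMTS genes did not pass either, but more of them had a negative difference. Of 17 other TIMP and ADAMTS genes 16 were measured, and 0 passed in any comparison. In IhhKO_ApcKO minus ApcKO, 6 were positive and 10 negative, with a median of -0.018, beside 56.6% of all genes positive. In IhhKO_ApcKO minus WT, 4 were positive and 12 negative, beside 44.9% of all genes positive. The values that follow are for IhhKO_ApcKO minus ApcKO. Adamts3, which trims procollagen ends, was at 7.07 ± 0.20 in IhhKO_ApcKO and 6.89 ± 0.10 in ApcKO (difference 0.18, adjusted p = 0.866). Adamts7, a protease of cartilage oligomeric matrix protein, was at 6.46 ± 0.11 in IhhKO_ApcKO and 6.63 ± 0.15 in ApcKO (difference -0.17, adjusted p = 0.7).

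Among 7 genes for ADAMTS-like proteins and papilin, which share the family's ancillary domains but lack the protease, 1 passed. Thsd4, also called Adamtsl6, an extracellular protein linked to fibrillin microfibrils, fell to 6.65 ± 0.17 in IhhKO_ApcKO, against 7.07 ± 0.13 in ApcKO. The difference was -0.42 (SE 0.074, limma adjusted p = 0.0221), and 9 of 9 IhhKO_ApcKO arrays lay below the ApcKO mean. The block for the code letter, which sets B9 alone against the ApcKO arrays coded B, ended this call (-0.16). Without B9 the difference was -0.45 (limma adjusted p = 0.00317). In WT Thsd4 was at 6.94 ± 0.16, and IhhKO_ApcKO minus WT was -0.28, with an adjusted p of 0.203. The next largest difference of that list was -0.16 for Adamtsl3, which did not pass.

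Genes for the proteins these proteases cut, and for the partners of both families, did not pass either. Of 14 ADAMTS substrates 0 passed in any comparison. Sdc4, a cell-surface heparan sulfate proteoglycan, was at 8.86 ± 0.16 in IhhKO_ApcKO and 8.67 ± 0.14 in ApcKO (difference 0.20, adjusted p = 0.87), and Tfpi2, a protease inhibitor of the matrix, differed by 0.13. Of 15 partners and clearance factors 0 passed. Mmp14, the membrane protease that binds Timp2, was at 10.09 ± 0.14 in IhhKO_ApcKO and 9.91 ± 0.21 in ApcKO (difference 0.17), and Efemp1, a fibulin that binds Timp3, was at 11.24 ± 0.11 in IhhKO_ApcKO and 11.38 ± 0.06 in ApcKO (difference -0.15, adjusted p = 0.659).

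Genes tied to cytokine, TGF-beta, progesterone, prostaglandin and Hedgehog signals were set beside the 6. Whether these signals control the 6 was not tested. Of 16 cytokine-induced genes 15 were measured, and 0 passed in any comparison. Positive differences numbered 14 in IhhKO_ApcKO minus ApcKO, 11 in IhhKO_ApcKO minus WT and 6 in ApcKO minus WT. Of all genes, 56.6%, 44.9% and 39.4% were positive in the same order. The values that follow are for IhhKO_ApcKO minus ApcKO. Saa3, an acute-phase protein, was at 7.61 ± 0.90 in IhhKO_ApcKO and 6.57 ± 0.58 in ApcKO (difference 1.04, adjusted p = 0.617), and Il1r1, the interleukin-1 receptor, differed by 0.27. Of 9 measured TGF-beta-induced genes 0 passed, and Postn, a matricellular protein, differed by -0.21 and Col1a1 by -0.18. Of 3 progesterone- and prostaglandin-linked receptors 0 passed, and Pgr differed by 0.15 and Ptger4 by -0.12. All 7 Hedgehog target genes had a negative difference in IhhKO_ApcKO minus ApcKO, and 3 passed. The differences of these 3 were -1.31 for Gli1, -1.32 for the receptor Ptch1 and -1.39 for the decoy receptor Hhip (limma adjusted p = 4.03e-06, 0.00139 and 0.00459). The same 3 passed as lower in IhhKO_ApcKO minus WT. Under the block for the code letter, the calls of all 3 were lost in both comparisons. There the difference from ApcKO is B9 alone minus the mean of the ApcKO arrays coded B. The comparison with WT adds A9 alone minus the WT mean. B9 is the array with all 3 genes within the range of the other genotypes, so the block cannot test these calls. The values against ApcKO were then -0.25, -0.10 and -0.41, and Ptch1 turned to 0.044 against WT. Without B9 the 3 differences were -1.44, -1.47 and -1.52 against ApcKO, and all 3 passed in both comparisons.

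The members differed in how far arrays of 1 genotype lay apart. The SD within genotypes, pooled over the 3 groups, was 0.327 for Adamts4, 0.280 for Adamts1, 0.263 for Adamts5, 0.203 for Timp1, 0.166 for Timp3 and 0.091 for Timp2. Among genes whose mean lay within 0.5 log2 units of the gene's own, 97.0%, 93.0% and 91.0% had a smaller SD than Adamts4, Adamts1 and Adamts5. That share was 76.5% for Timp1, 65.9% for Timp3 and 14.6% for Timp2. Each protease thus varied more than at least 91.0% of genes at its level, and no inhibitor did. For Adamts4 the array farthest above its group mean was IhhKO_ApcKO C3, by 0.50, and the farthest below was IhhKO_ApcKO C5, by -0.65.

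**Figure D3:**
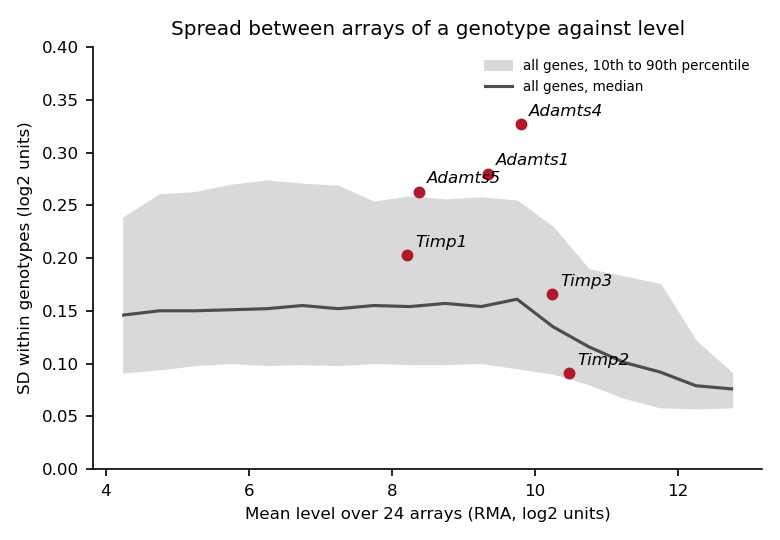
SD within genotypes (log2 units) against mean level over 24 arrays for the 6 genes (points), with the median of all genes (line) and their 10th to 90th percentile (grey band) in bins of level. Adamts4, Adamts1 and Adamts5 lie above the band, and Timp1, Timp3 and Timp2 within it.

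Part of this spread was shared between members. Each value was taken as its deviation from the mean of its genotype, so that differences between genotypes play no part, and all 15 pairs were correlated over 24 arrays. The permutations took the 24 arrays as exchangeable, and anything shared by arrays with the same code digit was not removed. Adamts1 and Adamts4 rose and fell together most closely, with Pearson r 0.696 (permutation p = 9e-05, adjusted over the 15 pairs 0.00135) and Spearman rho 0.654 (p = 0.00069, adjusted 0.0103). Without C3 and A3, the arrays farthest from the median of Adamts1, r was 0.67, and without B9 it was 0.716. Within genotypes r was 0.841 over the 9 IhhKO_ApcKO arrays, 0.51 over the 8 ApcKO arrays and 0.678 over the 7 WT arrays, where exact permutation p-values adjusted over the pairs were 0.0292, 0.89 and 0.498. Of all genes, 0.0195% had a higher r with Adamts4 than Adamts1 had.

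The second pair was Timp1 and Adamts4, with r 0.612 (permutation p = 0.00137, adjusted 0.0103) and rho 0.543 (p = 0.00703, adjusted 0.0527). Without ApcKO arrays B8 and A9, the highest and the lowest in Timp1, r was 0.49 and its adjusted p 0.156, so the call rests on those arrays. Without B9 r was 0.605. Within genotypes r was 0.431 in IhhKO_ApcKO, 0.896 in ApcKO and 0.344 in WT, and these values were not tested against each other. The known inhibitor and its proteases did not go together in this way: Timp3 had r -0.124 with Adamts4 and -0.066 with Adamts5 (permutation adjusted p 0.815 for both). The neighbours Adamts1 and Adamts5 had r 0.396 (adjusted 0.177), Adamts4 and Adamts5 0.391 (0.177), and Timp2 and Timp3 0.434 (0.163). In all, 10 of 15 pairs had r above 0, 2 passed by r and 1 passed by rho.

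Each member was also correlated with the mean of each of 20 gene lists, 120 relations in all, of which 8 passed by r and 2 by rho. Adamts4 went with the 15 cytokine-induced genes, with r 0.673 (permutation p = 0.00032, adjusted 0.0306) and rho 0.733 (p = 4e-05, adjusted 0.0048). Without B9 and C4, the arrays farthest from the median of the list, r was 0.687. Within genotypes r was 0.556 in IhhKO_ApcKO, 0.875 in ApcKO and 0.744 in WT. With the epithelial marker mean regressed out of both, a setting added after the data were seen, r was 0.719.

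Single genes of that list differed in this, and those named here were chosen by their r. The highest r with Adamts4 belonged to Tnfaip6 (0.679), a hyaluronan-binding protein, Has1 (0.655), a hyaluronan synthase, Il1r1 (0.624), the chemokine Cxcl1 (0.561) and Il6 (0.549). Lif was the one gene of 15 with r below 0 (-0.216). The median r was 0.348 over the list and -0.077 over all genes, of which 37.4% had r above 0. Leaving out each gene of the list in turn gave r between 0.619 (without Il1r1) and 0.736 (without Saa3).

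Timp1 went with the same list, with r 0.59 (permutation p = 0.00224, adjusted 0.0384) and rho 0.569 (p = 0.00414, adjusted 0.0651). Without B9 and C4 r was 0.554. For Timp1 too, Tnfaip6 (0.711) and Has1 (0.602) had the highest r of the list, and 13 of 15 genes were above 0, with a median of 0.316 against -0.008 over all genes.

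**Figure D4:**
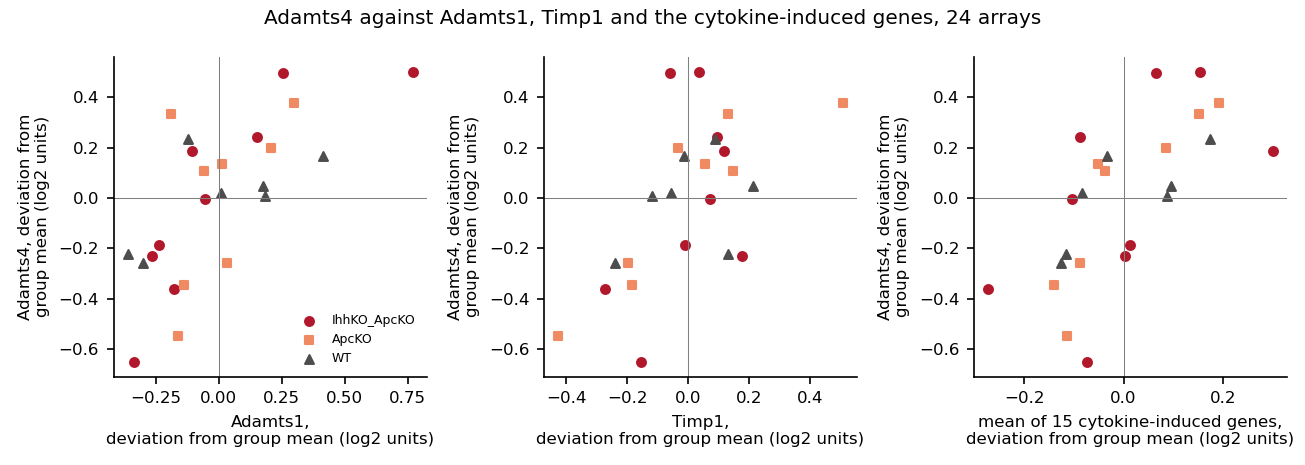
Deviation of Adamts4 from its genotype mean (vertical axis, log2 units) against that of Adamts1 (left), Timp1 (middle) and the mean of 15 cytokine-induced genes (right), over 24 arrays. Colours and shapes mark IhhKO_ApcKO, ApcKO and WT. Pearson r is 0.696, 0.612 and 0.673 from left to right, and in the left panel IhhKO_ApcKO array C3 lies far to the right.

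The other inhibitors followed other lists. Timp2 was lower where the epithelial marker mean was higher, with r -0.583 (permutation adjusted p = 0.0384) and rho -0.568 (adjusted 0.0651), and r -0.505 without C3 and C9. Array C9, lowest in Timp2, had the highest epithelial mean of all arrays, 8.11. Timp2 also went with the other TIMP and ADAMTS genes (r 0.67, adjusted 0.0306), the substrates (0.585, adjusted 0.048) and the TGF-beta-induced genes (0.604, adjusted 0.0384), but r was 0.419, 0.291 and 0.443 without the 2 arrays farthest from each list's median, C9 among them every time. Timp3 went against the mean of Kit and Ano1, markers of interstitial cells of Cajal, with r -0.63 (adjusted 0.0306), rho -0.67 (adjusted 0.027) and r -0.638 without C3 and B8. That mean was itself higher where the epithelial mean was higher (r 0.819), with which Timp3 had r -0.461 and rho -0.563 (adjusted 0.128 and 0.0651). With the epithelial mean regressed out, a setting added after the data were seen, r between Timp3 and Kit and Ano1 was -0.496 (unadjusted permutation p = 0.0137). Adamts1 went with the ADAMTS-like genes, with r 0.629 (adjusted 0.0306), rho 0.597 (adjusted 0.0651) and r 0.619 without C9 and C2. Adamts5 passed with no list.

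Genes whose pattern over the 24 arrays was most like each member were taken from those with a mean above the median gene, and are given as a description. They were Mt1 (r 0.741), Apln (0.727) and Ccl7 (0.712) for Timp1, Pramel12 (0.903), Tnxb (0.843) and Carhsp1 (0.843) for Timp2, and Glis3 (0.793), Rnh1 (0.769) and Gm5431 (0.764) for Timp3. For the proteases they were Aff1 (0.880), Atp5d (0.872) and Fosl2 (0.864) for Adamts1, Txnrd1 (0.815), Sbno2 (0.795) and Napa (0.720) for Adamts4, and Alkal2 (0.792), Galnt16 (0.790) and Rnf145 (0.773) for Adamts5. No gene stood among the nearest 3 of more than 1 member.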

How the data were processed

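Each of the 24 arrays held 1 sample. The authors deposited log2 values per probe set; per the submitters' processing notes they were made with RMA, with no version or genome build given in the sources used here. Arrays give no counts, so their number limits the precision. Of 72688 probe sets, 6732 controls were left out, and 31388 of the remaining 65956 had 1 gene symbol in the platform annotation. Symbols were updated through Entrez identifiers, and the brightest probe set stood for each gene, which gave 30827 genes with no filter on dim ones. Negative control probe sets had a 95th percentile of 8.21, close to the means of Timp1 and Adamts5, and antigenomic ones array medians of at most 3.15.

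Groups were taken from the titles. All 24 arrays entered 1 limma fit (lmFit and eBayes, limma 3.58.1, R 4.3.3), with p-values adjusted by Benjamini-Hochberg over all genes at a threshold of 0.05, after tests on simulated data. Correlations used deviations from group means, with two-sided permutation p-values from 100000 resamples (exact within groups) in numpy 2.4.6 and scipy 1.17.1. Named genes were the 6 members, the 3 genes with the highest r to each, and, of each context list, those that passed and the 2 with the largest absolute difference in IhhKO_ApcKO minus ApcKO. Tnfaip6, Has1, Cxcl1, Il6 and Lif were named after their correlations were seen. Members and lists were chosen with earlier results of these data known. Deviations of arrays with the same code digit in different groups correlated above 0.1 in 12 of 20 pairs (median 0.132), against 43 of 171 pairs with different digits (median -0.023). Not every same-digit pair did, and no label says what the digit marks, so arrays were not treated as paired. With the digit as a block, the SE of IhhKO_ApcKO minus ApcKO was 0.0944 for Adamts1 and 0.0891 for Adamts5. Without the block it was 0.127 and 0.12, and it changed less for the other members. The correlations did not remove the digit, and their p-values treat the 24 arrays as exchangeable, which the digit may not allow. Alternatives included leaving out each array, blocks, centring, array weights and marker means as covariates. Sequences are from RefSeq (GRCm38.p6).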

Additional observations from a re-analysis of the deposited data

Results flagged for a closer look

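One value lay far from the others of its group. Timp2 on IhhKO_ApcKO array C9 was at 10.2, the lowest of the 9 arrays, and its gap to the next array was larger than Dixon's 95% critical value for 9 samples. Of 36 such tests (the highest and the lowest array of 6 genes in 3 groups) this was the 1 that passed, and chance flags about 1 in 20 groups. C9 also had the highest epithelial and blood endothelial marker means of its group, 8.11 and 6.30, and a fibroblast marker mean of 10.44. Without C9, Timp2 was 0.049 higher in IhhKO_ApcKO than in ApcKO, and IhhKO_ApcKO minus WT was -0.011.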

How the results depend on the processing

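No member passed the threshold under any alternative run, in any comparison, and the cause of the changes below was not tested. Under a block for the code letter, ApcKO minus WT is A9 alone minus the WT mean. IhhKO_ApcKO minus ApcKO is then B9 alone minus the mean of the ApcKO arrays coded B, and IhhKO_ApcKO minus WT adds both. ApcKO minus WT became -0.38 for Timp1, -0.11 for Adamts1 and -0.49 for Adamts4. IhhKO_ApcKO minus ApcKO became -0.047 for Timp2, -0.0019 for Timp3 and -0.089 for Adamts1. IhhKO_ApcKO minus WT became -0.16 for Timp1, -0.19 for Timp3, -0.20 for Adamts1 and -0.19 for Adamts4. Under that block 113 genes passed in ApcKO minus WT, 53 in IhhKO_ApcKO minus ApcKO and 84 in IhhKO_ApcKO minus WT, and 0 of them were among the genes that passed without it. With the code digit as a replicate block, Timp3 in IhhKO_ApcKO minus ApcKO was 0.24, Adamts5 in IhhKO_ApcKO minus WT was -0.010, and 14 genes passed there, 8 of them among the 25 without the block.

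Differences near 0 changed sign most easily. Timp2 in IhhKO_ApcKO minus ApcKO was -0.0063 with the epithelial and -0.010 with the immediate early marker mean as a covariate, and Adamts1 there was -0.014 with the epithelial mean. Adamts5 in IhhKO_ApcKO minus WT was -0.0046 with the blood endothelial mean and -0.0038 with Xist, both chosen after seeing the data. Leaving out 1 array at a time gave ApcKO minus WT between -0.027 (without B8) and 0.11 for Timp1 and between -0.0060 and 0.12 for Adamts1. It gave IhhKO_ApcKO minus ApcKO between -0.00059 and 0.049 for Timp2 and between -0.056 and 0.083 for Adamts1. It gave IhhKO_ApcKO minus WT between -0.0022 and 0.16 for Adamts1 and between -0.083 (without A4) and 0.061 for Adamts5. Among differences that kept their sign, ApcKO minus WT ran from -0.082 to -0.043 for Timp2 and from -0.16 (without A4) to -0.012 (without A3) for Adamts5, IhhKO_ApcKO minus ApcKO from 0.029 (without C2) to 0.12 (without C5) for Adamts5, and IhhKO_ApcKO minus WT from -0.059 to -0.011 (without C9) for Timp2.

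The number of genes that passed in IhhKO_ApcKO minus ApcKO was 14, and ran from 8 (without C6) to 41 (without B9) as arrays were left out. It was 8 with median centring, 23 in the upper part of genes by mean, 65 with array weights, and 22 and 24 with the pericyte and blood endothelial means. In IhhKO_ApcKO minus WT it was 25, and ran from 12 (without A5) to 67 (without B9). It was 7 with the arrays of both groups alone, 16 with median centring, 45 with array weights and 39 with the blood endothelial mean. Without the 2 arrays farthest from the median, 1 of the 2 member pairs passed.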
